A study of Mus musculus with 2 samples.

Results

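The motile cilium of an ependymal cell is driven by an axoneme, and the genes described here are those whose mouse symbols begin with Cfap, Dnah, Dnaic, Dnaaf, Drc, Rsph, Tekt or Spag followed by a number, together with Foxj1. The rule found 86 symbols among the 32285 genes of the matrices, and 80 of them reached the minimum of 20 unique molecular identifiers (UMIs, each counting 1 captured RNA molecule) in cell barcodes with at least 1000 UMIs, at least 500 genes and at most 10% mitochondrial UMIs. The rule itself used no measured level apart from that minimum, although it was set with earlier results of these data known. Among the 6 left out, Spag11a, Spag11b and Rsph6a had 0 UMIs, and Spag6, Cfap97d1 and Spag17os had 18, 6 and 4. The 3 members nearest above the limit were Dnah17 with 25 UMIs, Tekt5 with 63 and Dnah8 with 84.

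The data are single-cell RNA libraries from mouse brain, taken up to 1 mm to each side of the site where KR158 cells, a mouse glioblastoma line, had been grafted. The conditional knockout library (cKO) came from a Cx3cr1 CreER/+ Plxnb2fl/fl host. The control library came from a Cx3cr1 CreER/+ Plxnb2 fl/+ host, which carries 1 floxed copy of Plxnb2 and is called wild type in its title. Both hosts were on the C57BL/6 background, both carried the tamoxifen-inducible Cre at 1 Cx3cr1 copy, and tamoxifen at 100 mg/kg was part of the protocol for both, starting 3 days before the graft and running to 8 weeks. Cx3cr1 drives the Cre in microglia and related myeloid cells. Its own RNA stood at 2179 counts per 1000000 UMIs (CPM) in cKO and 4744 CPM in control microglia-like cells, and at 24.4 CPM or less in ependymal-like cells of both libraries. The host's age is not in the labels. There was 1 library per genotype, so genotype, animal and library cannot be told apart, no difference between the libraries has a replicate check, and no p-value is given. All intervals are 95% intervals from the number of UMIs or cells, and they cover counting error only.

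The axoneme is a ring of paired microtubules around a central pair. Dynein arms on each outer pair slide it along the next. The nexin-dynein regulatory complex and the radial spokes, which reach toward the central pair, turn that sliding into a regular beat. Foxj1 is the transcription factor that switches on the genes of motile cilia, together with the Rfx factors, which bind a sequence called the X-box. In the brain, the beating cilia of ependymal cells move cerebrospinal fluid along the ventricle walls, and loss of many of these genes causes hydrocephalus in mice.

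The promoters of the members carried X-box letters more often than promoters in general. RefSeq promoters on GRCm38.p6, running from 250 bases before to 50 bases after the gene start, were at hand for 65 of the 80 members by symbol and for 27025 genes in all. The X-box half-site GTTGCC, searched on both strands, was present in 26 of the 65 members (40.0%), against 14.1% of all promoters. It was present in 25 of the 55 promoters of members that were at least 4-fold above the mean of the other cell classes in ependymal-like cells of both libraries, and in 1 of the other 10. The inverted repeat GTNNCCNNGGNNAC was found in 9 of the 65 members (13.8%), against 2.16% of all promoters, and its form with the fixed centre GTNNCCATGGNNAC in 2 members, against 0.581% of all. The forkhead spellings TGTTTAC and TGTTTGC were found in 6.15% and 10.8% of the members, against 4.05% and 5.76% of all promoters. The median GC content of these promoters was 56.0% for the members and 52.7% for all genes, and its part in the half-site counts was not tested. A half-site can lie inside an inverted repeat, so the counts overlap, and a match of letters is a description and not a binding site.

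The 3 windows of 80 bases that follow show the inverted repeat, in capitals, in members from that group of 55. Cfap206 had 224 CPM in cKO and 217 CPM in control ependymal-like cells, Cfap77 had 251 CPM in cKO and 270 CPM in control, and Tekt4 had 145 CPM in cKO and 129 CPM in control. The windows are RefSeq sequence on GRCm38.p6, read 5′ to 3′ on the gene's strand, and they end at or before the gene start as RefSeq places it: Cfap77 at chr2:29055237-29055316 on the minus strand, Cfap206 at chr4:34730207-34730286 on the minus strand and Tekt4 at chr17:25471397-25471476 on the plus strand. No annotated exon overlaps them, and that of Tekt4 lies in an intron of a longer annotated transcript that starts upstream.
Cfap77: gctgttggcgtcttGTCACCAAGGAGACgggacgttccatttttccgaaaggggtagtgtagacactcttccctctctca
Cfap206: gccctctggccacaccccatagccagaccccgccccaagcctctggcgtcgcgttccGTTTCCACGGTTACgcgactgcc
Tekt4: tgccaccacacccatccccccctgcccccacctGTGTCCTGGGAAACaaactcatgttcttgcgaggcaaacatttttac

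The cells were grouped without the help of these genes: the members and the other cilia lists were left out of the clustering, and classes were named from separate markers. Cilia genes outside those lists were not removed, so the classes are not free of them. The cKO library held 5206 cells and the control library 7645 after filtering and doublet removal, and 8 barcodes occurred in both. The ependymal-like class held 111 cells (2.13% of the cKO cells, exact binomial interval 1.76 to 2.56%) and 240 cells (3.14% of the control cells, 2.76 to 3.56%). All 8 ependymal markers were detected in it, with the ependymal gene Tmem212 at 2328 CPM in cKO and 2518 CPM in control cells. Ependymal-like cells were shallower in the cKO library, with a median of 14781 UMIs in cKO and 17488 UMIs in control cells. A choroid plexus-like class, marked by the genes of the epithelium that secretes cerebrospinal fluid, held 357 control cells and 4 cKO cells, so it is described in the control library alone. The matrices differ in kind, since the control matrix lists 10942 barcodes with at least 500 UMIs each and the cKO matrix lists 2377349, of which 1513730 hold a UMI. The targeted gene Plxnb2 stood at 36.7 CPM in cKO microglia-like cells and at 199 CPM in control microglia-like cells, and at 265 CPM in cKO and 255 CPM in control ependymal-like cells. The sources used here do not say whether the 3′ reads of Plxnb2 lie in the deleted stretch.

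As a whole the members were far more abundant in ependymal-like cells than in any other named class. They summed to 12651 CPM in cKO cells (12518 to 12785) and to 13755 CPM in control cells (13657 to 13854), which is 1.27% and 1.38% of all UMIs of those cells. The next class was choroid plexus-like at 1888 CPM in the control library (1847 to 1928), then astrocyte-like at 1056 CPM in cKO and 1018 CPM in control cells, and the other named classes lay between 298 and 658 CPM. Much of what the other classes held came from 6 members that are expressed widely, defined as 20 CPM or more in at least 3 other classes of both libraries. Without these 6, the other 74 members summed to 11578 CPM in cKO and 12649 CPM in control ependymal-like cells, to 1371 CPM in control choroid plexus-like cells, and to 323 CPM in cKO and 300 CPM in control astrocyte-like cells. Microglia-like cells then held 114 CPM in cKO and 133 CPM in control, and endothelial-like cells 63.1 CPM in cKO and 80.5 CPM in control. Free RNA, read from the cKO barcodes with 1 to 100 UMIs, held 554 CPM of these 74 members (531 to 578), above the level in each of those 3 classes. A low level of a member in cells that are not ependymal-like is therefore not read here as expression unless it stands above the level of that gene in free RNA. This bar is strict, since the share of a cell's UMIs that is free RNA was not estimated. A level under it may still be expression, and the control library holds no such barcodes. Each ependymal marker was lower in cKO microglia-like cells than in free RNA, with Tmem212 at 3.00 CPM against 79.4 CPM.

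**Figure D1:**
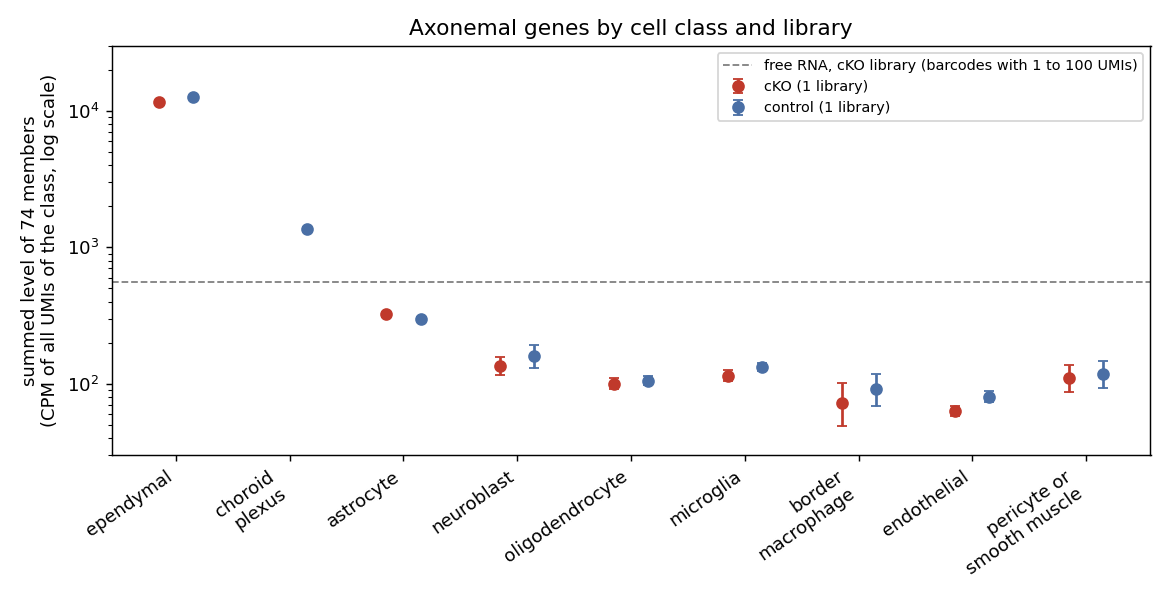
Summed level of the 74 members that are not widely expressed, in CPM on a log axis, for each cell class of the cKO and the control library with 95% exact Poisson intervals and a dashed line at the 554 CPM of free RNA. Ependymal-like cells reached 11578 CPM in cKO and 12649 CPM in control, choroid plexus-like cells of the control 1371 CPM, and the remaining classes 63.1 to 323 CPM.

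Taken one at a time, nearly all members were far higher in ependymal-like cells than in the other classes. A member was called ependymal-high when it had at least 20 UMIs in the ependymal-like cells of the library and a level at least 4-fold that of the other classes on average. By that minimum 74 of the 80 members could be judged. The other 6, being low in these very cells, left the count and did not weigh against it. In the cKO library 70 of these 74 were ependymal-high, against 15.5% of all 10489 genes judged the same way. In the control library 69 of 74 were, against 14.9% of 11876 genes. The 68 members called in both were 97.1% of the cKO calls and 98.6% of the control calls. The median fold of the members was 7.45 on the log2 scale in cKO and 5.70 in control, against 0.09 and 0.08 over all genes. The lower control value goes with the choroid plexus-like class, which is among the other classes in the control library only: without it, a comparison added after the data were seen, 70 of 74 members were called, against 15.6% of all genes, with a median of 7.29. Measured against the highest other class, 62 of 74 members in cKO and 57 of 74 in control were still 4-fold higher, against 8.69% and 7.34% of all genes.

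**Figure D2:**
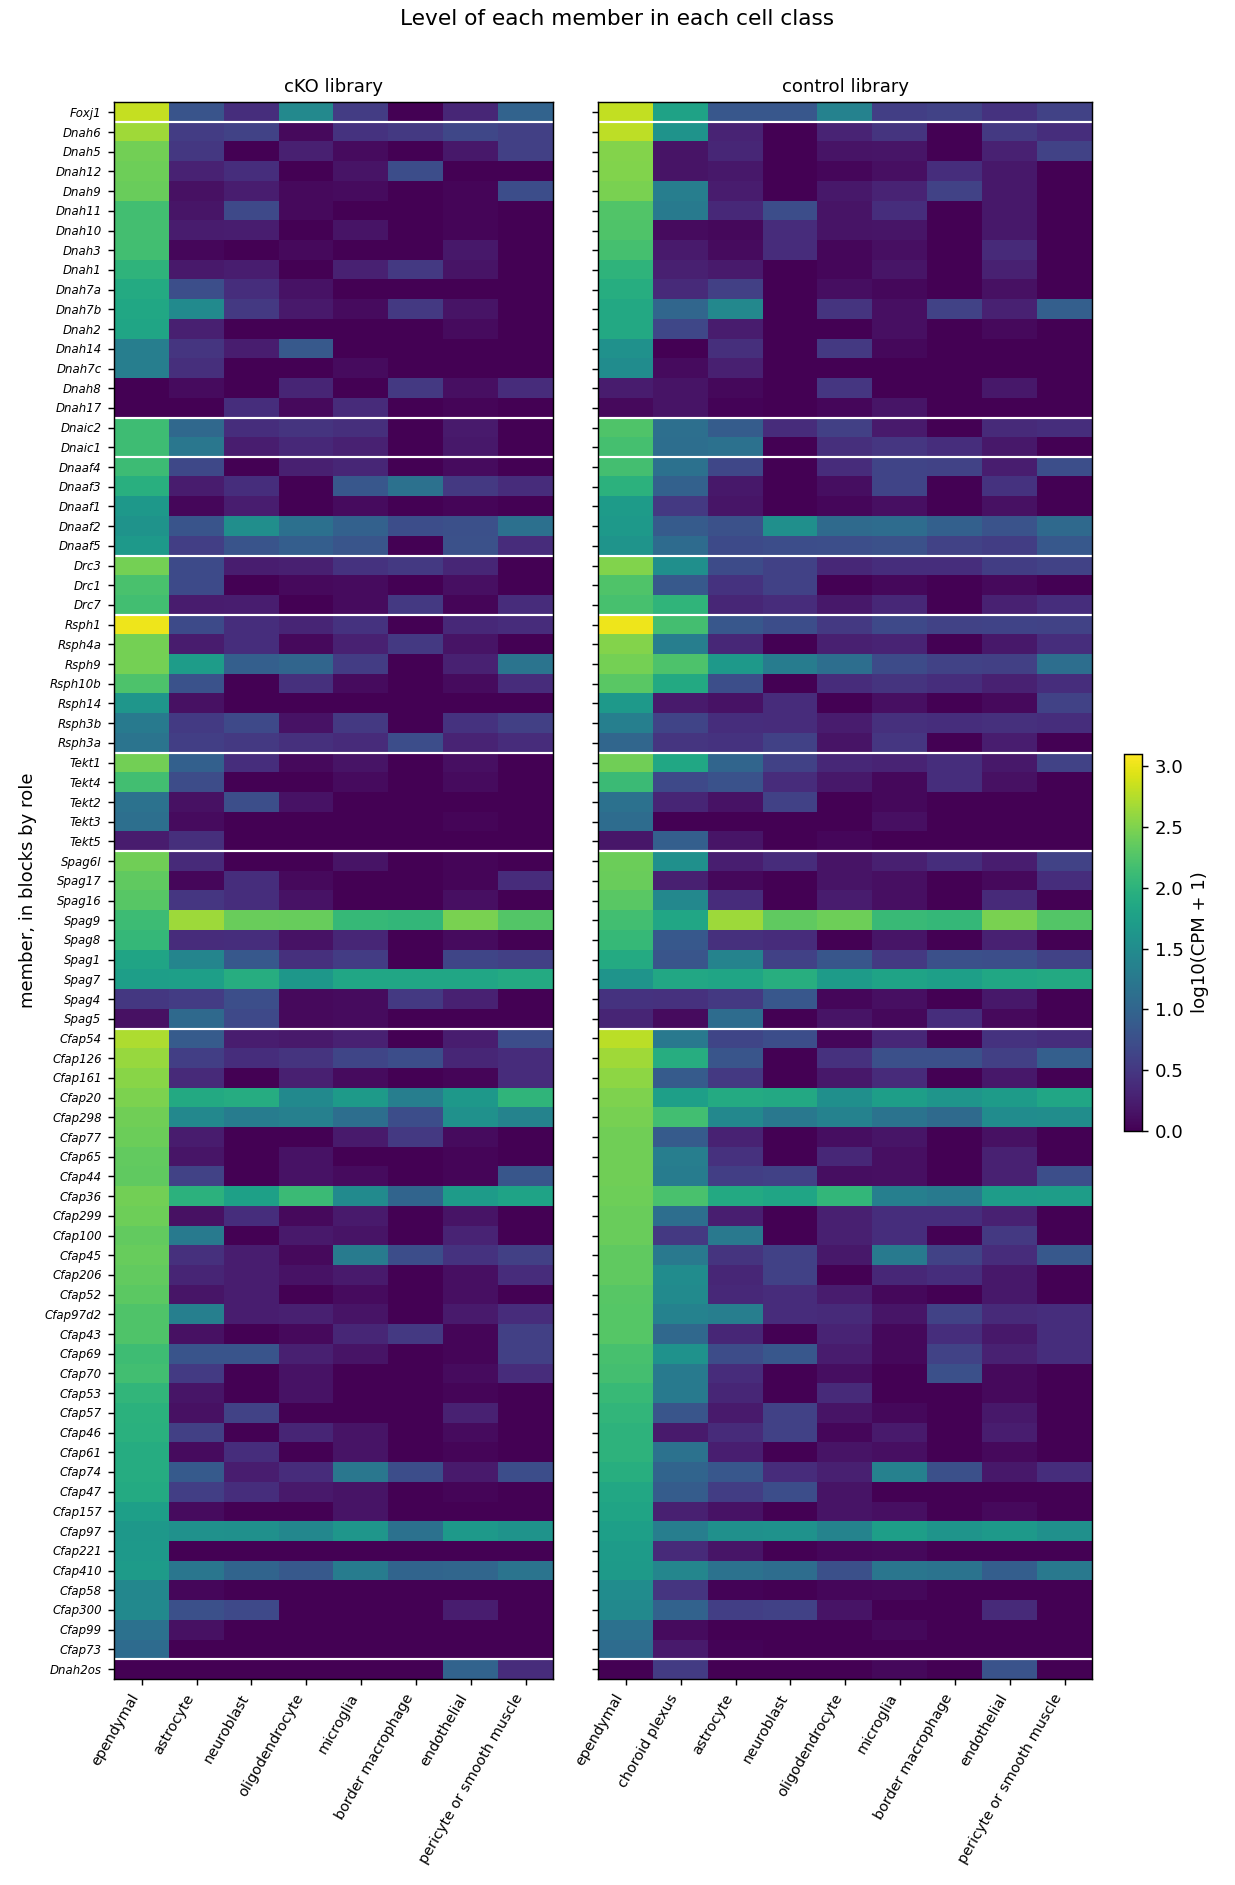
Level of each member, as log10(CPM + 1) on a colour scale, by cell class, with the cKO panel left of the control panel and members ordered by structural role. The ependymal-like column is high for nearly all rows in both panels, and the choroid plexus-like column of the control is filled for some roles and nearly empty for most dynein heavy chains.

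The widely expressed members were Cfap20, Cfap36, Cfap97, Cfap298, Spag7 and Spag9. Spag9, a scaffold of JNK signalling and vesicle transport, was lower in ependymal-like cells, at 132 CPM in cKO and 144 CPM in control, than in astrocyte-like cells, at 442 CPM in cKO and 438 CPM in control. Spag7 stood at 53.7 CPM in cKO and 38.7 CPM in control ependymal-like cells, 0.81-fold and 0.58-fold the mean of the other classes. Cfap97 stood at 43.8 and 55.2 CPM in cKO and control ependymal-like cells. These 3 were not ependymal-high in either library. Cfap20, a protein of the inner junction of the doublet microtubules, was both wide and ependymal-high, at 308 CPM in cKO and 319 CPM in control, 5.37-fold and 5.68-fold the mean of the other classes. Cfap298, which dynein arm assembly needs, stood at 264 CPM in cKO and 291 CPM in control ependymal-like cells, 12.9-fold and 7.85-fold the other classes. Another 3 members sat near the limit of 4-fold: Cfap36 reached 4.40-fold in cKO and 3.74-fold in control, Cfap410 4.18-fold and 3.51-fold, and the assembly factor Dnaaf2 3.30-fold and 4.10-fold.

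The other 6 members were too low in ependymal-like cells to be judged: Spag4, Spag5, Dnah2os, Dnah17, Tekt5 and Dnah8. Not all were rare elsewhere, since Spag5 had 432 UMIs and Dnah2os 192 UMIs over the filtered barcodes. In ependymal-like cells Spag5 stood at 0.17-fold the mean of the other classes in cKO and 0.63-fold in control. Spag4, a protein of the nuclear envelope, and Spag5, a protein of the mitotic spindle, share the symbol of the central-pair proteins without being axonemal. Dnah2os, a non-coding gene named for its place opposite Dnah2, had 0 UMIs in ependymal-like cells of both libraries and was highest in endothelial-like cells, at 8.74 CPM in cKO and 5.25 CPM in control. Dnah2 itself stood at 66.1 CPM in cKO and 72.5 CPM in control ependymal-like cells. The labels do not say whether the authors counted by strand.

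Foxj1 (chromosome 11, 116330704 to 116335399, minus strand, mm10) had 663 CPM in cKO ependymal-like cells (633 to 694) and 650 CPM in control ones (628 to 671). The intervals of the libraries overlap, and the log2 ratio of cKO over control was 0.03 (-0.05 to 0.11). The other cKO classes ran from 0 CPM in border macrophage-like cells to 27.5 CPM in oligodendrocyte-like cells, and the other control classes from 1.88 CPM in endothelial-like cells to 59.7 CPM in choroid plexus-like cells. Foxj1 was the only transcription factor chosen by the rule, and in ependymal-like cells of both libraries Rsph1 was the only member above it.

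Among the regulators of multiciliated cell formation, 7 of the 9 that could be judged were ependymal-high in cKO, against 15.5% of all genes, and 6 of 9 in control, against 14.9%. Rfx3, an X-box binding factor, had 124 CPM in cKO and 153 CPM in control ependymal-like cells, and Rfx2 70.1 CPM in cKO and 65.3 CPM in control. Trp73, a p53 family factor required for multiciliated cells, had 68.7 CPM in cKO and 62.0 CPM in control. The genes that act at the onset of multiciliation were low: Mcidas had 1 UMI in cKO and 0 in control ependymal-like cells, Ccno had 11 and 19, and Foxn4 had 0 in both. Gmnc, which acts above Mcidas, stood at 10.2 CPM in cKO and 8.63 CPM in control.

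The dynein heavy chains are the motor proteins of the arms. Dnah6, an inner-arm chain, was the highest of the 15, at 449 CPM in cKO ependymal-like cells (425 to 475) and 618 CPM in control ones (598 to 640). Dnah5, the outer-arm chain most often mutated in primary ciliary dyskinesia in humans, had 274 CPM in cKO (255 to 294) and 337 CPM in control (322 to 353). The inner-arm chain Dnah12 had 262 CPM in cKO and 323 CPM in control, and the outer-arm chain Dnah9 had 247 CPM in cKO and 302 CPM in control. The log2 ratios of cKO over control were -0.46, -0.30, -0.30 and -0.29 for these 4, each with an interval below 0. None of the 4 reached 1.5-fold. They have the most UMIs of their role, so their intervals are narrow. The share of all genes with an interval below 0 is not given here, so this is no call. The heavy-chain ratios also moved with the weighting and thinning of cells, as described below. The 15 heavy chains summed to 2024 CPM in cKO and 2489 CPM in control ependymal-like cells. Dnah7a, Dnah7b and Dnah7c are near-identical copies among which reads may be split, and together they held 166 CPM in cKO and 190 CPM in control, a log2 ratio of -0.20 (-0.36 to -0.04).

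The intermediate chains anchor the outer arms. Dnaic1 and Dnaic2 each had 135 CPM in cKO ependymal-like cells, against 151 and 176 CPM in control ones. The assembly factors build the arms in the cytoplasm before they enter the cilium. Dnaaf4 had 132 CPM in cKO and 148 CPM in control, Dnaaf3 89.1 and 98.2, Dnaaf5 44.9 and 38.7, and Dnaaf1 43.8 and 49.0. In both libraries each assembly factor stood below the 4 heavy chains named above, which are the highest of their role. Dnaaf4 stood below Dnah3, Dnah10 and Dnah11 and above the remaining heavy chains in both libraries. The other assembly factors stood below both intermediate chains. In cKO the interval of Dnaaf4 (118 to 146) overlapped that of both intermediate chains (122 to 150 each). In control the interval of Dnaaf4 (138 to 159) overlapped that of Dnaic1 (141 to 162), but not that of Dnaic2 (165 to 188). A 3′ library counts molecules tagged at their end, so these levels were not scaled by transcript length.

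Drc1, Drc3 and Drc7 encode parts of the nexin-dynein regulatory complex, and Drc3 led with 280 CPM in cKO and 322 CPM in control ependymal-like cells. Drc1, needed to assemble the complex, had 161 CPM in cKO and 177 CPM in control, and Drc7 had 144 CPM in cKO and 158 CPM in control. Rsph1 (chromosome 17, 31255019 to 31277383, minus strand, mm10), a protein of the radial spoke head, was the highest member of all, at 1043 CPM in cKO (1006 to 1082) and 1059 CPM in control (1032 to 1086), with overlapping intervals. Other spoke head genes followed: Rsph4a had 281 CPM in cKO and 335 CPM in control, and Rsph9 had 278 CPM in cKO and 286 CPM in control. Rsph10b had 169 CPM in cKO and 201 CPM in control. Rsph3a and Rsph3b, a pair of similar copies of a spoke stalk protein, together held 31.8 CPM in cKO and 30.3 CPM in control.

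The tektins are filament proteins inside the doublet microtubules. Tekt1 had 274 CPM in cKO and 267 CPM in control ependymal-like cells, Tekt4 145 and 129, Tekt2 13.9 and 13.4, and Tekt3 12.4 and 11.4. Tekt1 and Tekt4 were thus far more abundant than Tekt2 and Tekt3 in each library. Of the sperm-associated antigens, 3 belong to the central pair: Spag6l had 265 CPM in cKO and 255 CPM in control, Spag17 218 and 244, and Spag16 196 and 204. Spag6, the near-identical copy of Spag6l, fell just under the UMI minimum. The 32 Cfap genes summed to 5422 CPM in cKO and 5792 CPM in control. Cfap54, of the central pair, had 517 CPM in cKO and 604 CPM in control. Cfap126, which helps to dock basal bodies at the cell surface, had 418 CPM in cKO and 452 CPM in control. Cfap161, a protein inside the doublet microtubules, had 358 CPM in cKO and 376 CPM in control.

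The members' levels were uneven. Their median was 133 CPM in cKO and 146 CPM in control ependymal-like cells, 45 members in cKO and 47 in control reached 100 CPM, and 12 in cKO and 11 in control were under 20 CPM. The 10 highest members held 36.3% of the sum in cKO and 36.9% in control.

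Between the libraries, the members as a group were slightly lower in cKO ependymal-like cells, by an amount that depended on the weighting and thinning of cells. Among the 74 members with at least 30 UMIs over both libraries, the median log2 ratio of cKO over control was -0.13, against 0.02 over all 11946 genes measured. It was -0.069 when each cell counted equally. When each cell was thinned to 1000 UMIs it was -0.0088, over the fewer members that still had 30 UMIs. The thinned value is thus not over the same members, and it rests on far fewer UMIs. The ratio was below 0 for 56 of the 74 (75.7%), against 46.6% of all genes. Only 1 member was at least 1.5-fold higher in cKO, Rsph3a, against 5.6% of all genes, and its interval included 0 (log2 ratio 0.61, -0.02 to 1.24). Only 2 were at least 1.5-fold lower, against 3.97% of all genes: the inner-arm gene Dnah14, with 20.1 CPM in cKO and 35.6 CPM in control (-0.83, -1.28 to -0.39), and Dnah7c, with 20.5 CPM in cKO and 31.2 CPM in control (-0.61, -1.07 to -0.16). The next highest ratios were Spag7 at 0.47, Dnaaf5 at 0.21 and Tekt4 at 0.17, and the next lowest were Dnah6 at -0.46 and Dnaic2 at -0.38.

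By role, the dynein genes had the lowest medians when UMIs were summed over cells, but this order turned with other settings. The median log2 ratio of the 13 heavy chains measured was -0.29, with 12 of the 13 below 0, and that of both intermediate chains was -0.27. The assembly factors stood at -0.16, the nexin-dynein regulatory complex at -0.14, the radial spokes at -0.12, the Cfap genes at -0.11, the sperm-associated antigens at -0.06 and the tektins at 0.09. The heavy-chain value moved with the weighting of cells: it was -0.12 with 11 of 13 below 0 when each cell counted equally. It was 0.11 with 4 of the 9 measurable chains below 0 when each cell was thinned to 1000 UMIs. Thinning also weights cells equally, but it leaves far fewer UMIs and fewer measurable genes, so counting error is larger there. The heavy-chain value was -0.42 with a mitochondrial limit of 5%, where the nexin-dynein regulatory complex, at -0.30, lay below the intermediate chains, at -0.28. After thinning, the radial spokes lay lowest, at -0.42 with 4 of 4 measurable genes below 0, and with each cell counted equally the assembly factors lay lowest, at -0.15. The dynein heavy-chain genes are long, and by gene span the members' medians were -0.08 under 20 kb, -0.13 from 20 to 100 kb and -0.16 from 100 kb, against 0.04, 0.01 and 0.02 for all genes. The libraries also differed in these cells in depth, in mitochondrial share (median 4.51% in cKO and 5.26% in control), and in rRNA-like gene models (1.08% of UMIs in cKO and 2.32% in control). The choroid plexus markers summed to 362 CPM in cKO, with 4 of the 10 at 0, and to 856 CPM in control, with 0 of the 10 at 0. The endothelial markers summed to 161 CPM in cKO and 30.5 CPM in control, and the oligodendrocyte markers to 308 CPM in cKO and 173 CPM in control, none of them at 0. The part of each in the ratios was not tested.

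**Figure D3:**
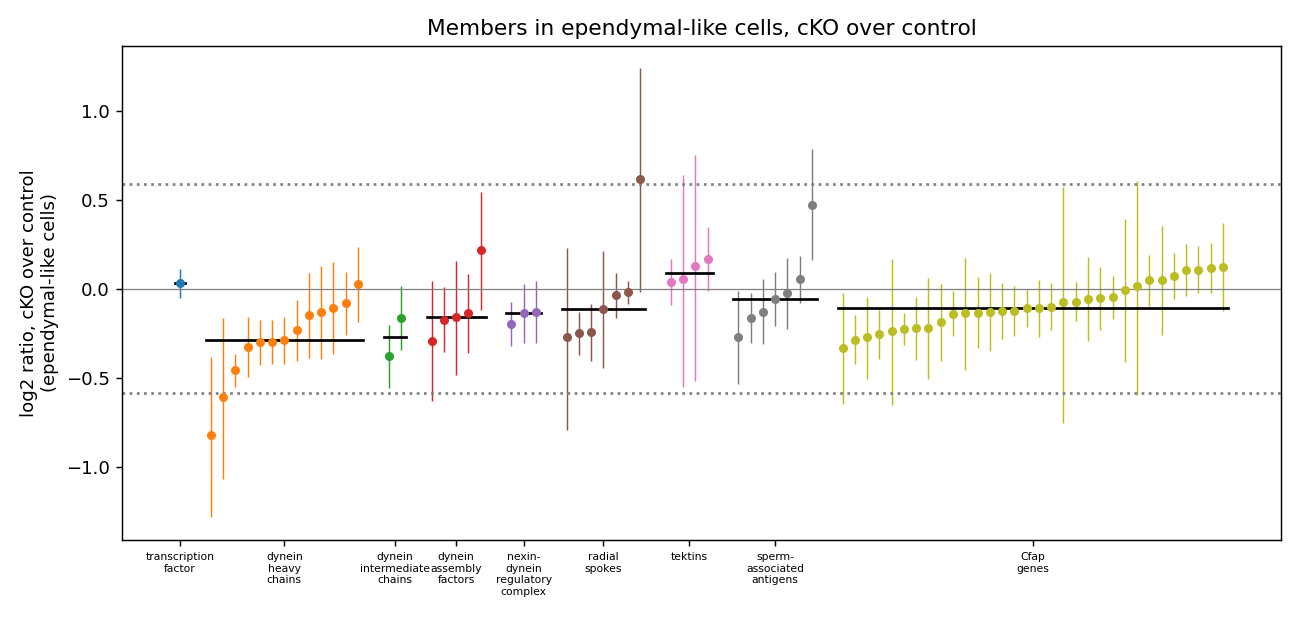
Log2 ratio of cKO over control in ependymal-like cells for each of the 74 members measured, 1 point per gene with its 95% interval, grouped by structural role. The points lie mostly a little below 0, with 12 of the 13 dynein heavy chains below 0 and Dnah14 lowest at -0.83.

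Other cilia genes were counted in the same way, against the same shares of all genes: 15.5% ependymal-high in cKO, 14.9% in control, 5.6% higher and 3.97% lower in cKO. Of the other axonemal genes listed, 53 of the 54 that could be judged were ependymal-high in each library, Nme7 being the exception, and their median log2 ratio of cKO over control was -0.06, with 0 genes 1.5-fold higher and 1 lower. The most abundant was Ccdc153, at 2459 CPM in cKO and 2699 CPM in control ependymal-like cells, above every member. Hydin, of the central pair, had 271 CPM in cKO and 322 CPM in control, and Ccdc39, which sets the repeat length of the axoneme, had 312 CPM in cKO and 386 CPM in control. Of the genes of intraflagellar transport and the BBSome, which primary cilia also use, 20 of 28 in cKO and 22 of 28 in control were ependymal-high, with a median log2 ratio of -0.04. None of these 28 genes differed by 1.5-fold between the libraries. Nor did any of the 10 multiciliation regulators with enough UMIs, whose median log2 ratio, 0.12, was of the opposite sign.

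Detection in single cells was described for the 68 members that were ependymal-high in both libraries. They were chosen for being higher in these cells, so their lower detection in other classes is no separate finding. After thinning each cell to 1000 UMIs, an ependymal-like cell showed a median of 10 of the 68 in cKO (range 5 to 18) and 11 in control (range 2 to 21). At least 5 of the 68 were seen in 111 of 111 cKO cells (100%, exact interval 96.7 to 100%) and in 236 of 240 control cells (98.3%, 95.8 to 99.5%). Outside this class the same threshold was passed by 1 astrocyte-like cell in each library and by 3 of 357 choroid plexus-like cells of the control, and by 0 cells of the other named classes. Every ependymal-like cell showed at least 1 of these members even when thinned. Foxj1 was seen in 44.1% of thinned cKO ependymal-like cells and 43.3% of control ones, against 0.267% of cKO and 0.143% of control microglia-like cells, which should lack it. Unthinned, the ependymal-like shares were 99.1% in cKO and 97.1% in control.

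**Figure D4:**
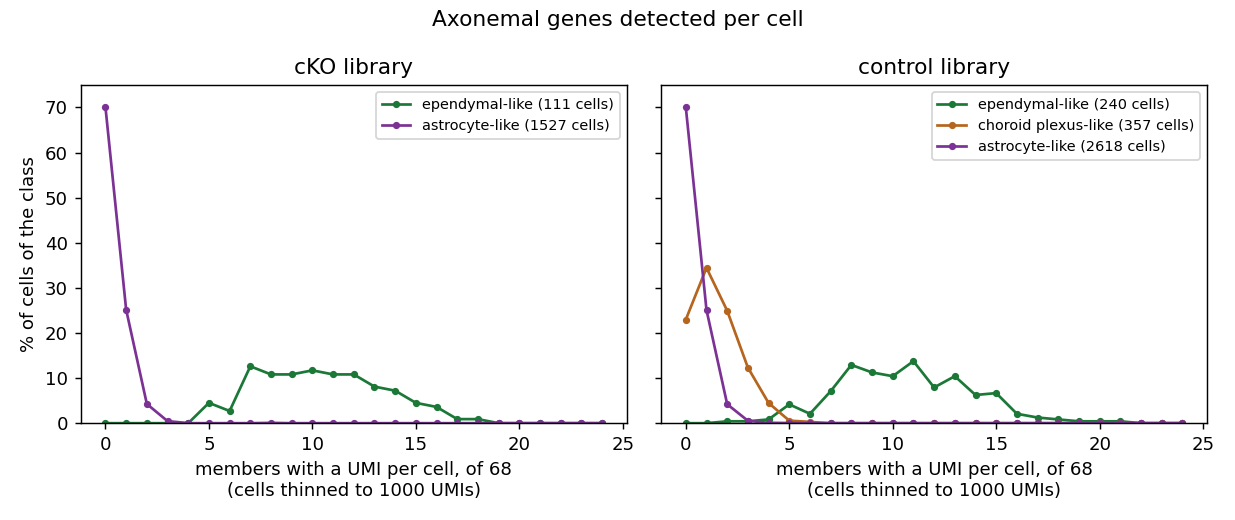
Number of the 68 ependymal-high members detected per cell after thinning each cell to 1000 UMIs, as the percentage of cells of each class, for ependymal-like and astrocyte-like cells of both libraries and choroid plexus-like cells of the control. Ependymal-like cells centre on 10 members in cKO and 11 in control, choroid plexus-like cells on 1, and most astrocyte-like cells show 0.

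Choroid plexus epithelium also lines the ventricles and bears cilia, and in the control library it held part of the programme. Over choroid plexus-like against ependymal-like cells, 62 of the 74 members measured were at least 4-fold lower, against 24.7% of all genes. The median log2 ratio was -3.66, against -0.92 over all genes. The medians differed between roles, and the difference was not tested. The dynein heavy chains had a median of 0.876% of their ependymal-like level, and all 13 were at least 4-fold lower. The radial spokes had a median of 16.2%, the sperm-associated antigens 13.3%, the nexin-dynein regulatory complex 10.5%, the assembly factors 9.06%, the Cfap genes 8.75%, the intermediate chains 7.57% and the tektins 5.66%. The sperm-associated antigens include the widely expressed Spag7, at 185%.

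Most of the motor genes were near 0 in choroid plexus-like cells. Dnah5 had 2 UMIs there and 1835 in ependymal-like cells, which is 0.449 against 337 CPM and a log2 ratio of -9.55 (-12.60 to -7.70). Dnah12 had 2 UMIs against 1758, and Dnah10 had 1 against 950. Spag17, of the central pair, was as low, with 4 UMIs against 1329. Dnah14 and Tekt3 had 0 UMIs, which with a floor of 3 UMIs puts them at least 52.9-fold and at least 16.9-fold lower. Dnah6, the most abundant motor gene, had 37.9 CPM in choroid plexus-like cells against 618 CPM in ependymal-like cells, and Dnah7b had 13.1% of its ependymal-like level, the highest share among the 13 heavy chains measured. The outer-arm chain Dnah9 had 20.2 CPM in choroid plexus-like cells (6.67% of its ependymal-like level), and Dnah11 had 17.9 CPM (9.89%).

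Several structural genes were shared between the 2 epithelia. Drc7 had 105 CPM in choroid plexus-like cells, against 158 CPM in ependymal-like cells (66.4%), although Drc1 of the same complex was at 6.28 against 177 CPM (3.54%). Rsph9 had 170 CPM against 286 CPM (59.7%), Rsph10b 75.4 against 201 CPM (37.6%), and Rsph1 148 against 1059 CPM (14.0%), while Rsph4a of the same spoke head was at 20.0 against 335 CPM (5.97%). Tekt1 had 68.6 against 267 CPM (25.7%). Cfap126 had 83.9 against 452 CPM, and Foxj1 had 59.7 against 650 CPM (9.18%). Cfap126, Drc7, Rsph1, Rsph10b and Tekt1 were the members at 50 CPM or more in choroid plexus-like cells and at 10 CPM or less in every class but these 2. Tekt5 ran the other way, with 34 UMIs (7.63 CPM) in choroid plexus-like cells against 3 UMIs (0.551 CPM) in ependymal-like cells, a log2 ratio of 3.79 (2.12 to 6.14).

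The ependymal markers give the level at which ependymal RNA as such was found in choroid plexus-like cells. Tmem212 had 6.95 CPM in choroid plexus-like cells against 2518 CPM in ependymal-like cells, and the median over the 8 ependymal markers was 0.705% of the ependymal-like level, with 1 marker, Calml4, at 113%. Among the members, 11 were at or under 1% and 30 at or above 10%. In single cells thinned to 1000 UMIs, Rsph1 was seen in 16.8% of choroid plexus-like cells, Rsph9 in 12.3% and Drc7 in 7.28%, and Dnah5 in 0 of 357 (up to 1.03%). In control ependymal-like cells the same shares were 64.2%, 25.4%, 13.3% and 23.8%.

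**Figure D5:**
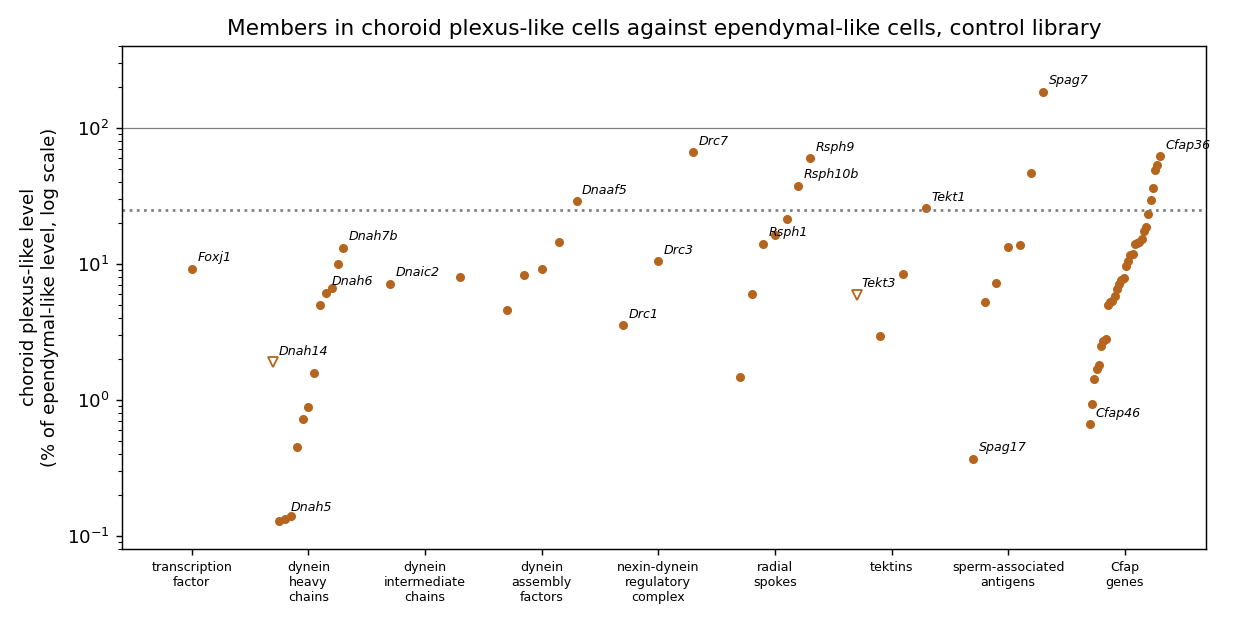
Level of each member in choroid plexus-like cells of the control library as a percentage of its level in ependymal-like cells of the same library, on a log axis, grouped by structural role; open triangles are upper limits from 0 UMIs with the floor of 3, and the dotted line is the 4-fold limit. The dynein heavy chains have a median of 0.876% and the radial spokes of 16.2%, and Drc7 and Rsph9 stand at 66.4% and 59.7%.

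A few members had a second site of expression outside both epithelia. The rule asked for 10 CPM or more, and 4-fold or more over the average of the remaining named classes, in both libraries. The ependymal-like and choroid plexus-like classes were not among those remaining. Free RNA was no part of this rule, and its levels are given below. Astrocyte-like cells had 7 such members of the 80, against 4.28% of the 17895 genes that reached the same UMI minimum. Rsph9 had 50.9 CPM there in cKO and 46.1 CPM in control, and Dnah7b, an inner-arm heavy chain with similar copies, had 29.4 CPM in cKO and 27.3 CPM in control, which is 43.0% and 37.2% of its ependymal-like level. Spag1, a dynein assembly factor, had 24.7 CPM in cKO and 23.0 CPM in control. Cfap97d2, Cfap100, Dnaic1 and Spag5 were between 10.5 and 20.6 CPM in both libraries. The rule covers named classes only. A cluster that no marker list named held Rsph9 at 79.1 CPM in 24 cKO cells (43.2 to 133, 14 UMIs). In 99 control cells of that cluster Rsph9 stood at 75.5 CPM (54.6 to 102, 43 UMIs).

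For comparison, the ependymal markers had a median of 0.506% of their ependymal-like level in cKO astrocyte-like cells and 0.929% in control ones. Free RNA held 19.1 CPM of Rsph9, 5.87 CPM of Dnah7b and 11.7 CPM of Spag1. Dnah7b was uneven among the astrocyte-like clusters, with 21.5 CPM in cKO and 21.7 CPM in control cells of the largest cluster and 78.7 CPM in cKO and 50.6 CPM in control cells of the cluster where it was highest. Rsph9 was highest in other clusters, and in the one where Dnah7b was highest it stood at 22.9 CPM in cKO and 18.7 CPM in control. The annotation places Mrps18a across Rsph9, Zxdc across Cfap100 and Enho across Dnaic1, so reads of these neighbours may be among their counts, while no annotated gene overlaps Dnah7b, Cfap97d2 or Spag5.

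In the other classes few members met the rule: 2 of the 80 in microglia-like cells, 1 in neuroblast-like and 1 in oligodendrocyte-like cells, against 3.12%, 3.74% and 3.5% of all genes. Microglia-like cells had Cfap45, a protein inside the doublet microtubules, at 18.5 CPM in cKO and 18.1 CPM in control, and Cfap74 at 16.2 CPM in cKO and 22.0 CPM in control. Both overlap an annotated gene on the other strand, and free RNA held 9.95 CPM of Cfap45 and 6.13 CPM of Cfap74. Neuroblast-like cells had Dnaaf2 at 32.6 CPM in cKO and 34.1 CPM in control, close to its 38.4 and 47.0 CPM in cKO and control ependymal-like cells. Free RNA held 8.68 CPM of Dnaaf2. Oligodendrocyte-like cells had Foxj1 at 27.5 CPM in cKO and 22.8 CPM in control, while the remaining named classes averaged 3.20 CPM in cKO and 3.78 CPM in control. Free RNA of the cKO library held 40.1 CPM of Foxj1, so by the strict bar used here this level is not read as expression. The ependymal markers had a median of 0.109% of their ependymal-like level in cKO oligodendrocyte-like cells and 0.293% in control ones. Foxj1 had 663 CPM in cKO and 650 CPM in control ependymal-like cells. Whether oligodendrocyte-like cells express Foxj1 was not tested. With other filters Cfap45, Dnaaf2 and Spag1 fell under the 4-fold limit in at least 1 library, at 3.72-fold, 3.40-fold and 2.88-fold at the lowest.

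Between the libraries, astrocyte-like cells had 45 measurable members, of which 9 were at least 1.5-fold higher in cKO, against 3.74% of all genes, and 2 were lower, against 5.55%. All 9 were among the 25 members with 30 to 100 UMIs, a range in which 12.9% of all genes were called higher, and 5 of the 9 had an interval above 0, as 5.97% of all genes in that range did. Cfap54 had 6.67 CPM in cKO and 3.43 CPM in control (log2 ratio 0.96), Dnah6 2.59 and 1.06 (1.29), and Drc1 3.95 and 1.88 (1.07). Cfap126 was lower, at 2.72 CPM in cKO and 5.63 CPM in control (-1.05). These levels lie below those of free RNA, which held 20.4 CPM of Cfap54, 14.8 CPM of Dnah6, 7.15 CPM of Drc1 and 16.8 CPM of Cfap126, so they are not read as expression. The ependymal marker Tmem212 stood at 3.95 CPM in cKO and 7.02 CPM in control astrocyte-like cells, and the count of 9 became 3 with a floor of 2000 UMIs per cell and 0 of 19 measurable members with a mitochondrial limit of 5%.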

How the data were processed

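The libraries analysed, 1 per genotype, were prepared with a droplet 3′ kit. The authors deposited unnormalized UMI counts for each gene in each barcode, and the submitters' processing notes name Cell Ranger 7.1.0 and mm10. No source used here gives the annotation release, the treatment of introns or the strand setting. The total was 63785513 UMIs in cKO, 20.6% of them in barcodes under 500 UMIs, and 64756949 in control.

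Barcodes with at least 1000 UMIs, at least 500 genes and at most 10% mitochondrial UMIs were kept (5398 in cKO, 8068 in control), and Scrublet (scanpy 1.11.5, expected rate 6%) removed 3.56% and 5.24% as doublets. Cells were clustered on 2000 variable genes without the members and the listed cilia genes (30 components, 15 neighbours, leidenalg 0.10.2, resolution 1.0), and clusters were named "-like" from marker lists. The unnamed clusters held 806 cKO and 862 control cells. Counts were summed per class and library and divided by all UMIs of the class (CPM). Intervals are exact Poisson for levels, Clopper-Pearson for shares and exact conditional for ratios. Classes under 50 cells in a library were left out. With 1 library per genotype no test across genes was run; the ratio step was tested on simulated data. Gene positions are from GENCODE vM21, which held 99.8% of the gene IDs. The intervals used scipy 1.17.1, and the tables were handled with pandas 2.3.3 and numpy 2.4.6 in python 3.11.15.

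The text names, within each role, up to 4 members with the most UMIs in ependymal-like cells, the 4 highest and 4 lowest ratios, the widely expressed members and the 3 nearest each side of the UMI minimum; other named genes were chosen after their values were seen. The members and lists were chosen with earlier results of these data known. Alternatives changed the filters, the clustering, doublet removal, the scaling, the UMI minimum and the weighting of cells.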

Additional observations from a re-analysis of the deposited data

Results flagged for a closer look

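Cells in clusters that no marker list named held 2 members above their level in the control library. The search kept only members higher in cKO, so their direction is no finding. Cfap74 stood at 84.9 CPM in a cKO cluster of 148 cells with microglia markers and a low depth, and at 48.8 CPM in the control cells of that cluster; the cKO value rests on 20 UMIs. Spag5, the spindle protein, stood at 51.4 CPM (40.4 to 64.5) in 98 cKO cells of a cluster with neuroblast and cycling-cell markers (75 UMIs). In its control cells Spag5 stood at 33.5 CPM (23.4 to 46.3), so the intervals overlap. Spag5 also stood at 61.6 CPM in 52 cKO cells of a cluster with microglia and cycling-cell markers (30 UMIs), which held 1 control cell, while its mean over the named control classes was 1.74 CPM.

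Some members differed between the libraries in opposite directions in 2 classes, each ratio with an interval that left out 0. The search covered the members only, and the share of all genes with such opposite ratios is not given, so their number is no finding. The difference between the classes was not tested. In astrocyte-like cells the log2 ratio of cKO over control was 1.29 for Dnah6, 0.96 for Cfap54 and 0.55 for Dnaic2, against -0.46, -0.23 and -0.38 in ependymal-like cells. All 3 astrocyte-like levels lie below free RNA, at 2.59 CPM in cKO and 1.06 CPM in control for Dnah6 (free RNA 14.8), 6.67 and 3.43 CPM for Cfap54 (20.4) and 10.2 and 7.02 CPM for Dnaic2 (11.7), so they are not read as expression. For Dnaic2, the next class outside the 2 epithelia was oligodendrocyte-like, at 1.92 CPM in cKO and 2.84 CPM in control. Dnaic2 had 135 CPM in cKO and 176 CPM in control ependymal-like cells. The ependymal markers had a median of 0.506% of their ependymal-like level in cKO astrocyte-like cells and 0.929% in control ones. Whether astrocyte-like cells express Dnaic2 was not tested. Spag7 had -0.24 in astrocyte-like and 0.47 in ependymal-like cells. Dnah14 had 1.51 in oligodendrocyte-like cells, on 45 UMIs, and -0.83 in ependymal-like cells.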

How the results depend on the processing

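No paired analysis was possible because there is 1 library per genotype and no test. Among the ratios of named genes, Tekt4 was -0.12 after thinning, against 0.17. The heavy-chain median was then 0.11 over the 9 chains still measurable, against -0.29. The ependymal-like cells were the same at clustering resolutions 0.5 and 2.0. The number of members at least 1.5-fold higher in cKO ependymal-like cells was 0 with a floor of 2000 UMIs, with a mitochondrial limit of 20%, without doublet removal and with at least 100 UMIs per gene, and 2 after thinning, against 1; the number lower was 2 or 3. The median log2 ratio was -0.15 with a mitochondrial limit of 5% and when centred on all genes. It was -0.16 without mitochondrial, ribosomal protein, haemoglobin and rRNA-like genes, and -0.069 as a mean over cells. After thinning, which left fewer measurable members, it was -0.0088. With the 5% limit, ependymal-like cells made up 2.71% of control cells and the control member sum was 14337 CPM. That sum was 13470 CPM without doublet removal (12451 CPM in cKO) and 13067 CPM after thinning. In astrocyte-like cells, in a comparison added after the data were seen, the number higher was 3 with a floor of 2000 UMIs and 0 with a mitochondrial limit of 5%. The number of ependymal-high members ran from 62 to 71 in cKO and from 57 to 71 in control. Members with few UMIs, and levels at or below free RNA, limit what can be read.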
